A study of Mus musculus musculus x M. m. domesticus and Mus musculus domesticus and Mus musculus with 12 samples.

Results

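Genes of DNA replication licensing, the helicase activator Cdc45 and the minichromosome maintenance genes Mcm2 to Mcm7, were compared across the testes of 4 mouse genotypes. They were chosen as a fixed list of 8 gene identifiers, of which 7 are among the 7000 genes of the expression table. The identifier listed for Pcna, the sliding clamp of the replication fork, has no row there and was not analysed. Symbols are those given with the list, since the table holds Ensembl identifiers only. Whole testis of 12 males aged 60 days was measured, with 1 Affymetrix expression array per male and 3 males per genotype. The *DxD* males were F1 males within *M. domesticus* (LEWES/EiJ mother, WSB/EiJ father), and the *MxM* males were F1 males within *M. musculus* (PWK/PhJ mother, CZECHII/EiJ father). The reciprocal hybrids were *DxM* (LEWES/EiJ mother, PWK/PhJ father), which are fertile, and *MxD* (PWK/PhJ mother, LEWES/EiJ father), which are sterile. None of the groups was treated, and all males were F1, so none was inbred. The *DxD* and *MxM* males carry WSB/EiJ and CZECHII/EiJ chromosomes that the hybrids lack, and they are not the parents of the hybrids.

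The MCM proteins encoded by Mcm2 to Mcm7 form a ring that is loaded onto replication origins in G1, which licenses each origin to fire once. In S phase, Cdc45 and the GINS complex join the ring and turn it into the moving helicase of the fork. In adult testis, replication takes place in spermatogonia and in preleptotene spermatocytes before they enter meiosis, whereas spermatids no longer replicate. The genes are therefore of interest both as a readout of dividing germ cells and as genes whose level may differ between the species. Values are log2 gene-level intensities, quantile normalized by the authors, so that 1 unit is a doubling. A value depends on the probes of its gene, and levels are compared between males within a gene and not between genes.

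All 12 arrays hold the same sorted values, with a median of 8.14. The *MxM* males varied most, with a median SD over genes of 0.149, whereas that of the *DxD* males was 0.0800, that of the *DxM* males 0.106 and that of the *MxD* males 0.123. *MxM* replicate 3 stood apart, since 131 genes were lower there than in all the other males by 1 log2 unit or more, against 0 to 4 such genes in any other male. Differences from *MxM* that moved by over 1.5 times without it are given with and without it. Differences were tested with limma over all 7000 genes, with Benjamini-Hochberg adjustment at 5%. A male counts as a replicate of its genotype, and the labels do not say whether males of a genotype shared a litter.

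Expression of all 7 genes had its lowest genotype mean in *DxD*. The share of all genes with their lowest mean in *DxD* was not computed. A higher mean in *DxD* than in *MxM* was found in none of the 7 genes. It was found in 46.8% of all genes and 37.5% of 365 other mitotic genes, a class described below. The mean log2 difference from *MxM* was between -0.72 and -0.10, and 4 of the 7 genes, Cdc45, Mcm4, Mcm6 and Mcm7, were lower in *DxD* than in *MxM* by limma. Among all genes, 31.9% were called between these genotypes and 17.8% were called with lower expression in *DxD*. The median difference of *DxD* from *MxM* was -0.55 over the 7 genes and -0.02 over all genes. Fewer replicating cells and less RNA per cell cannot be told apart in whole testis.

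Cdc45 (ENSMUSG00000000028_at), which completes the active helicase with the MCM ring and GINS, had the smallest adjusted p of the 7 between the species. Its log2 expression was 7.31, 7.28 and 7.31 in the *DxD* males and 7.94, 8.08 and 8.03 in the *MxM* males. The *DxM* males measured 7.53, 7.60 and 7.53, and the *MxD* males 7.45, 7.58 and 7.45. Every *MxM* male was above every male of the other genotypes, every *DxD* male was below them, and the hybrids lay between. The share of all genes with such an order of males was not computed. The difference of *DxD* from *MxM* (log2 difference -0.72, standard error 0.06, limma adjusted p = 1.0e-05) corresponds to 1.64-fold higher expression in *MxM*. Without *MxM* replicate 3 the difference was -0.71. Cdc45 was also lower in *MxD* than in *MxM* by a log2 difference of -0.53 (limma adjusted p = 2.0e-04) and lower in *DxM* than in *MxM* by -0.47 (limma adjusted p = 7.6e-04). It was the single gene among the 7 that was called between either hybrid and *MxM*. The order of its means was *DxD*, *MxD*, *DxM*, *MxM*, and the neighbours *MxD* and *DxM* did not differ beyond their spread (log2 difference -0.06, 95% interval -0.20 to 0.08).

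Mcm7 (ENSMUSG00000029730_at), a subunit of the MCM ring, measured 10.15, 9.98 and 9.94 in the *DxD* males and 10.70, 10.61 and 10.42 in the *MxM* males. The *DxM* males measured 10.75, 10.63 and 10.61, and the *MxD* males 10.86, 10.72 and 10.73. All *DxD* males were below the other 9 males, whose genotypes lay close together. How many of all genes separate *DxD* from the other 9 males was not computed. Expression in *MxM* was 1.47-fold that in *DxD* (log2 difference of *DxD* from *MxM* -0.55, standard error 0.09, limma adjusted p = 6.2e-04). Unlike Cdc45, both hybrids had a mean above that of *MxM*, with log2 differences from *MxM* of 0.09 in *DxM* (95% interval -0.10 to 0.28) and 0.19 in *MxD* (95% interval -0.0011 to 0.386). The order of the means was *DxD*, *MxM*, *DxM*, *MxD*, and none of the last 3 was called against another. Blocking on the replicate number, Mcm7 was called between *MxD* and *MxM* (limma adjusted p = 0.016).

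Mcm4 (ENSMUSG00000022673_at) and Mcm6 (ENSMUSG00000026355_at), whose proteins are neighbouring subunits of the ring, had differences between the species of similar size and a larger spread. Mcm4 measured 5.94, 6.17 and 6.13 in the *DxD* males, 6.55, 6.78 and 7.002 in the *MxM* males, 6.23, 6.73 and 6.58 in the *DxM* males, and 6.53, 6.60 and 7.10 in the *MxD* males. Mcm6 measured 6.84, 7.18 and 7.26 in the *DxD* males, 7.49, 7.79 and 8.01 in the *MxM* males, 7.38, 7.71 and 7.55 in the *DxM* males, and 7.37, 7.64 and 7.74 in the *MxD* males. For both genes every *DxD* male was below every male of the other genotypes, and the other genotypes overlapped one another. No share of all genes was computed for this separation from all other genotypes. Mcm4 was 1.62-fold higher in *MxM* than in *DxD* (log2 difference of *DxD* from *MxM* -0.70, standard error 0.17, limma adjusted p = 0.0097). Mcm6 was 1.59-fold higher in *MxM* (log2 difference -0.67, standard error 0.16, limma adjusted p = 0.0070). Without *MxM* replicate 3, which held the highest *MxM* value of both genes, the differences were -0.58 for Mcm4 (limma adjusted p = 0.032) and -0.55 for Mcm6 (limma adjusted p = 0.023). For both genes the order of the means was *DxD*, *DxM*, *MxD*, *MxM*, and the last 3 did not differ by limma at 5%.

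The other MCM genes were not called between the species. Mcm2 (ENSMUSG00000002870_at) measured 6.60, 6.52 and 6.49 in *DxD* and 6.68, 6.60 and 6.62 in *MxM*, a log2 difference of *DxD* from *MxM* of -0.10 (95% interval -0.26 to 0.07, limma adjusted p = 0.36). Its males did not overlap between the species, but the nearest values of the genotypes were almost equal. Mcm3 (ENSMUSG00000041859_at) measured 6.82, 6.76 and 6.70 in *DxD* and 6.87, 6.76 and 6.99 in *MxM*, a difference of -0.11 (95% interval -0.28 to 0.06), or -0.051 without *MxM* replicate 3. Mcm5 (ENSMUSG00000005410_at) measured 7.60, 7.67 and 7.60 in *DxD* and 7.62, 7.82 and 8.06 in *MxM*, a difference of -0.20 (95% interval -0.43 to 0.03). For Mcm5 single males decided the value, since leaving out *MxM* replicate 3 gave -0.089, whereas leaving out *MxM* replicate 1 gave -0.31, which was called (limma adjusted p = 0.028). In Mcm3 and Mcm5 the species overlapped. Groups did not overlap between *DxD* and *MxM* in 5 of the 7 genes, each lower in *DxD*, where 44.9% of all genes were separated, 25.1% in that direction. The methods of the study name Student's t-test. Its equal-variance form, adjusted over all genes, called 3 of the 7 between the species, where 19.7% of all genes were called. The unequal-variance form left Cdc45 as the 1 gene called, where 6.69% of all genes were called. For the other genes called by limma, the adjusted p-values of the unequal-variance t-test were 0.10 for Mcm4, 0.13 for Mcm6 and 0.064 for Mcm7.

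**Figure D1:**
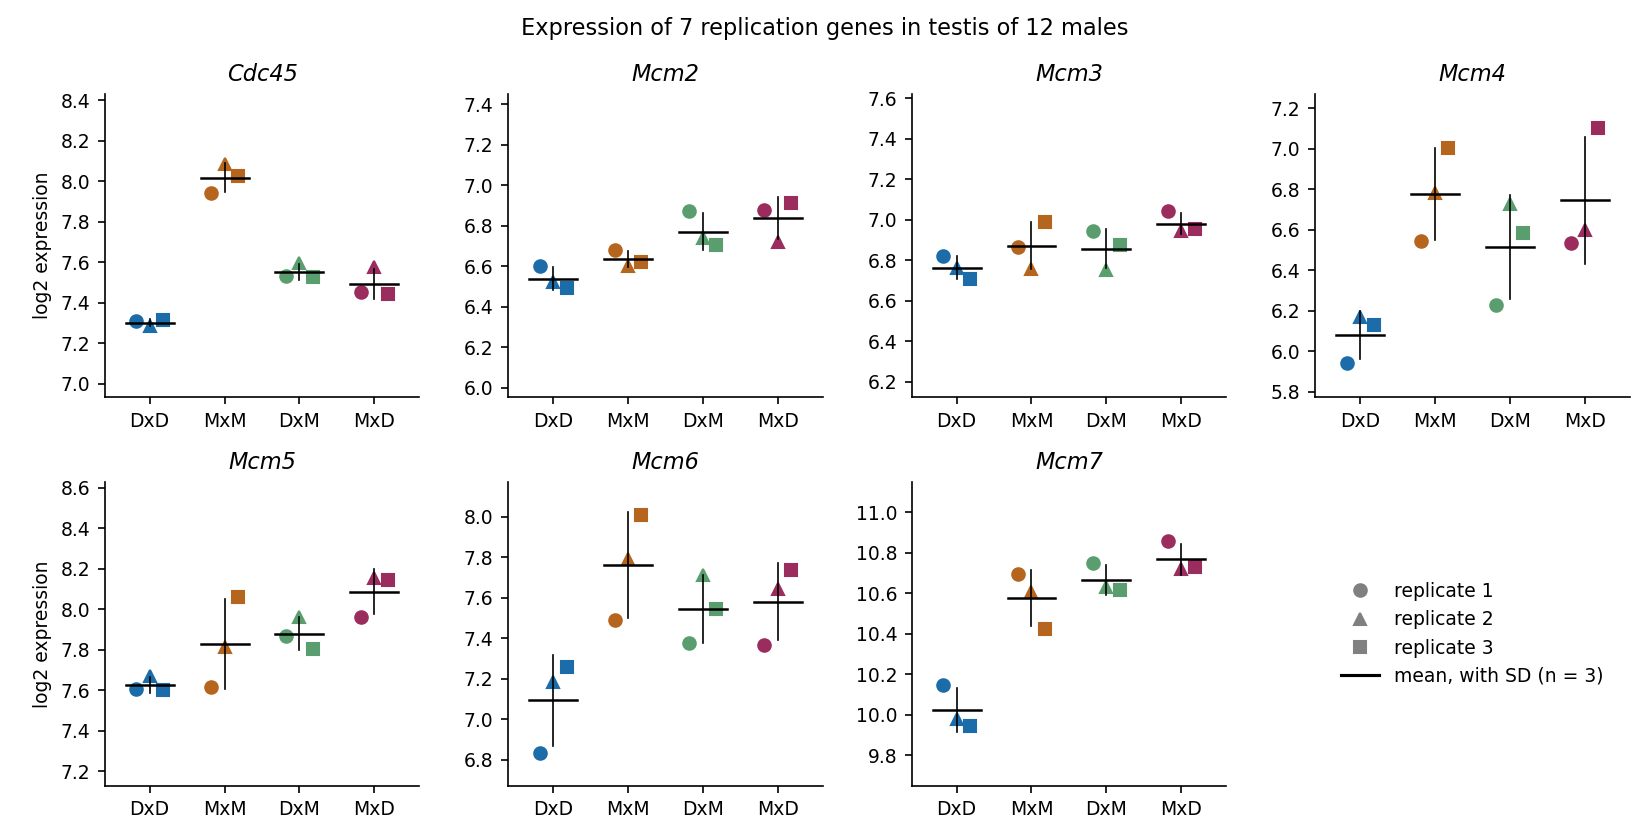
Log2 expression of the 7 genes in each of the 12 males, with 1 panel per gene and each vertical axis spanning the same range of 1.5 log2 units. Symbols mark the replicate number, horizontal bars the genotype mean and vertical bars the SD of 3 males. *DxD* has the lowest mean in every panel, and in Cdc45 the *MxM* males are above all others, from 7.94 to 8.08.

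Expression in the sterile hybrid was compared with each fertile genotype in turn. These comparisons share the *MxD* males, and those of either hybrid with *DxD* share the *DxD* males, so they are not independent of one another. Against *DxD*, all 7 genes had a higher mean in *MxD*, no gene overlapped between the groups, and 6 of the 7 rose by limma. A higher mean in *MxD* was found in 48.9% of all genes and 84.9% of the 365 other mitotic genes, a class described below. Over all genes 31.0% were called in this comparison, 15.9% with higher expression in *MxD*, and 50.5% were separated without overlap, 25% in that direction. The median log2 difference was 0.46 over the 7 genes and -0.01 over all genes.

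Mcm7 had the largest rise, 1.68-fold in *MxD* relative to *DxD* (log2 difference 0.75, standard error 0.09, limma adjusted p = 1.4e-04). Mcm4 rose 1.59-fold (0.66, standard error 0.17, limma adjusted p = 0.013) and Mcm6 rose 1.40-fold (0.49, standard error 0.16, limma adjusted p = 0.035). Mcm5, a ring subunit at the gate through which DNA enters, rose 1.38-fold (0.46, standard error 0.10, limma adjusted p = 0.0069). Its *MxD* males measured 7.96, 8.15 and 8.15, and its *DxM* males 7.87, 7.96 and 7.80. Mcm2, the subunit on the other side of that gate, rose 1.23-fold (0.30, standard error 0.07, limma adjusted p = 0.011), with 6.88, 6.72 and 6.91 in *MxD* and 6.87, 6.74 and 6.70 in *DxM*. In both genes all 6 hybrid males were above all *DxD* males, and the share of all genes with this separation was not computed. Cdc45 rose 1.14-fold (0.19, standard error 0.06, limma adjusted p = 0.045). Mcm3 measured 7.04, 6.95 and 6.96 in *MxD*, above every *DxD* male, but its difference of 0.22 (95% interval 0.05 to 0.39) missed the threshold (limma adjusted p = 0.054).

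Same-numbered males were counted as pairs in this comparison because their values deviated together, while the labels give no pairing. The main limma fit did not use the pairs. In all 7 genes the *MxD* male was above the *DxD* male in 3 of 3 pairs. That follows from the lack of overlap, under any pairing, and adds nothing to it. The paired differences were 0.53, 0.46 and 0.47 for Mcm6 and 0.14, 0.29 and 0.13 for Cdc45. With the replicate block all 7 genes were called, where 46.0% of all genes were, with limma adjusted p-values of 0.016 for Cdc45, 0.021 for Mcm3, 0.0013 for Mcm4 and 7.8e-04 for Mcm6. Without the block, the calls of Cdc45, Mcm4 and Mcm6 depended on single males. That of Cdc45 was lost in 10 of the 12 fits that left out 1 male, with limma adjusted p-values up to 0.14. Without *DxD* replicate 1 or without *MxD* replicate 3, the count fell from 6 genes to 3, and the share of all genes called was 22.2% and 21.9%. The limma adjusted p-values without *DxD* replicate 1 were 0.098 for Cdc45, 0.054 for Mcm4 and 0.14 for Mcm6. By the unequal-variance t-test Mcm7 was the 1 gene called, where 9.34% of all genes were, and by the equal-variance form 3 genes were called, where 22.7% of all genes were. Without *MxM* replicate 3, which changes the shared spread, all 7 were called, where 37.2% of all genes were.

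Between *MxD* and *MxM*, Cdc45 was the 1 gene called of 7, where 30.3% of all genes were called, 17.3% with lower expression in *MxD*. Males did not overlap in Cdc45, lower in *MxD*, as in 21.3% of all genes, and in Mcm2 and Mcm7, higher in *MxD*, as in 16.6% (37.9% in either direction). The other differences were 0.20 for Mcm2 (95% interval 0.04 to 0.37, limma adjusted p = 0.061), 0.11 for Mcm3 (95% interval -0.06 to 0.28), -0.03 for Mcm4 (95% interval -0.41 to 0.35), 0.26 for Mcm5 (95% interval 0.03 to 0.49, limma adjusted p = 0.087) and -0.18 for Mcm6 (95% interval -0.53 to 0.16). Under the replicate block the count was 4 genes, with Mcm2, Mcm5 and Mcm7 higher in *MxD* and Cdc45 lower, where 43.9% of all genes were called. Without *MxM* replicate 3 the count was 2, since Mcm5 was then 0.37 higher in *MxD* (limma adjusted p = 0.011), where 30.8% of all genes were called. The difference was then 0.17 for Mcm3, 0.081 for Mcm4, -0.059 for Mcm6 and 0.12 for Mcm7, none of them called. Leaving out *MxD* replicate 2 also gave 2, with Mcm2 added (limma adjusted p = 0.029).

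Sterile and fertile hybrids carry the same autosomal strains and differ in which species gave the X chromosome, the Y chromosome and the mitochondria. None of the 7 genes was called between *MxD* and *DxM* by limma, none had an unadjusted p under 0.05 in that fit without the replicate block, and none was called by either form of the methods' t-test. Over all genes 6.50% were called and 21.8% had an unadjusted p under 0.05. Mcm5 was an exception in other fits. Its unadjusted limma p-values were 0.046 with the replicate block, 0.041 with 1 variance per genotype and 0.026 without *MxM* replicate 3. The 95% interval with the block was 0.0046 to 0.41, and the limma adjusted p-values were 0.14, 0.19 and 0.13. Cdc45 was another exception with arrays centred on mitotic genes, a scaling described below. There it was lower in *MxD*, by a difference of -0.21 (limma 95% interval -0.38 to -0.048). Same-numbered males were counted as pairs here too, again without a pairing in the labels. The *MxD* male was higher in 3 of 3 pairs in Mcm3, Mcm5 and Mcm7, and lower in 3 of 3 in Cdc45. For Mcm3 this follows from its lack of overlap, and the share of all genes with such pairs was not computed. In 6 of the 7 genes the mean was higher in *MxD*, by 0.04 to 0.23 on the log2 scale, and in Cdc45 it was lower by a difference of -0.06. Among all genes 49.9% had a higher mean in *MxD*, and among the other mitotic genes 85.2% did. The widest intervals were those of Mcm4 (0.23, 95% interval -0.15 to 0.61) and Mcm6 (0.04, 95% interval -0.31 to 0.38), which leave room for a 1.5-fold change in Mcm4. Mcm5 had a difference of 0.21 (95% interval -0.02 to 0.44), Mcm3 of 0.12 (95% interval -0.05 to 0.30), Mcm7 of 0.10 (95% interval -0.09 to 0.29) and Mcm2 of 0.07 (95% interval -0.10 to 0.23). The males did not overlap in 1 gene, Mcm3, where 26.4% of all genes were separated, 13.5% with higher values in *MxD*.

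The fertile hybrid was also compared with both species. Against *DxD* all 7 genes had a higher mean in *DxM*, as did 50.6% of all genes and 70.7% of the other mitotic genes. Of the 7, 6 did not overlap (37.7% of all genes were separated, 18.6% in that direction). By limma 2 rose, where 12.1% of all genes were called and 5.84% were called with higher expression in *DxM*. Mcm7 rose 1.56-fold (log2 difference 0.64, standard error 0.09, limma adjusted p = 8.8e-04) and Cdc45 rose 1.19-fold (0.25, standard error 0.06, limma adjusted p = 0.027). The call of Cdc45 in *DxM* was lost when any 1 of the *DxD* or *DxM* males was left out, with limma adjusted p-values from 0.061 to 0.11, and the count was then 1. Under the replicate block, Mcm2, Mcm4 and Mcm6 were called as well, which made 5 genes, where 22.6% of all genes were called. With 1 variance per genotype the count was 6, all but Mcm3, where 22.0% of all genes were called. The unblocked differences were 0.43 for Mcm4 (95% interval 0.05 to 0.81), 0.45 for Mcm6 (95% interval 0.11 to 0.80), 0.25 for Mcm5 and 0.23 for Mcm2. Against *MxM*, Cdc45 was lower in *DxM* and the 1 gene called, where 16.9% of all genes were called, 10.4% with lower expression in *DxM*, and the other differences lay between -0.26 for Mcm4 and 0.14 for Mcm2. Without *MxM* replicate 3 the difference of *DxM* from *MxM* was 0.045 for Mcm3, -0.15 for Mcm4, 0.16 for Mcm5, -0.095 for Mcm6 and 0.015 for Mcm7, against -0.015, -0.26, 0.049, -0.22 and 0.091 with it, and none of these was called. Males did not overlap in Cdc45, lower in *DxM*, as in 18.1% of all genes, and in Mcm2, higher in *DxM*, as in 12.2% (30.3% in either direction).

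The counts at an unadjusted p under 0.05 were 4 of 7 between the species (41.8% of all genes), 7 in *MxD* against *DxD* (42.0%), 3 in *MxD* against *MxM* (41.5%), 6 in *DxM* against *DxD* (25.5%) and 1 in *DxM* against *MxM* (29.5%).

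**Figure D2:**
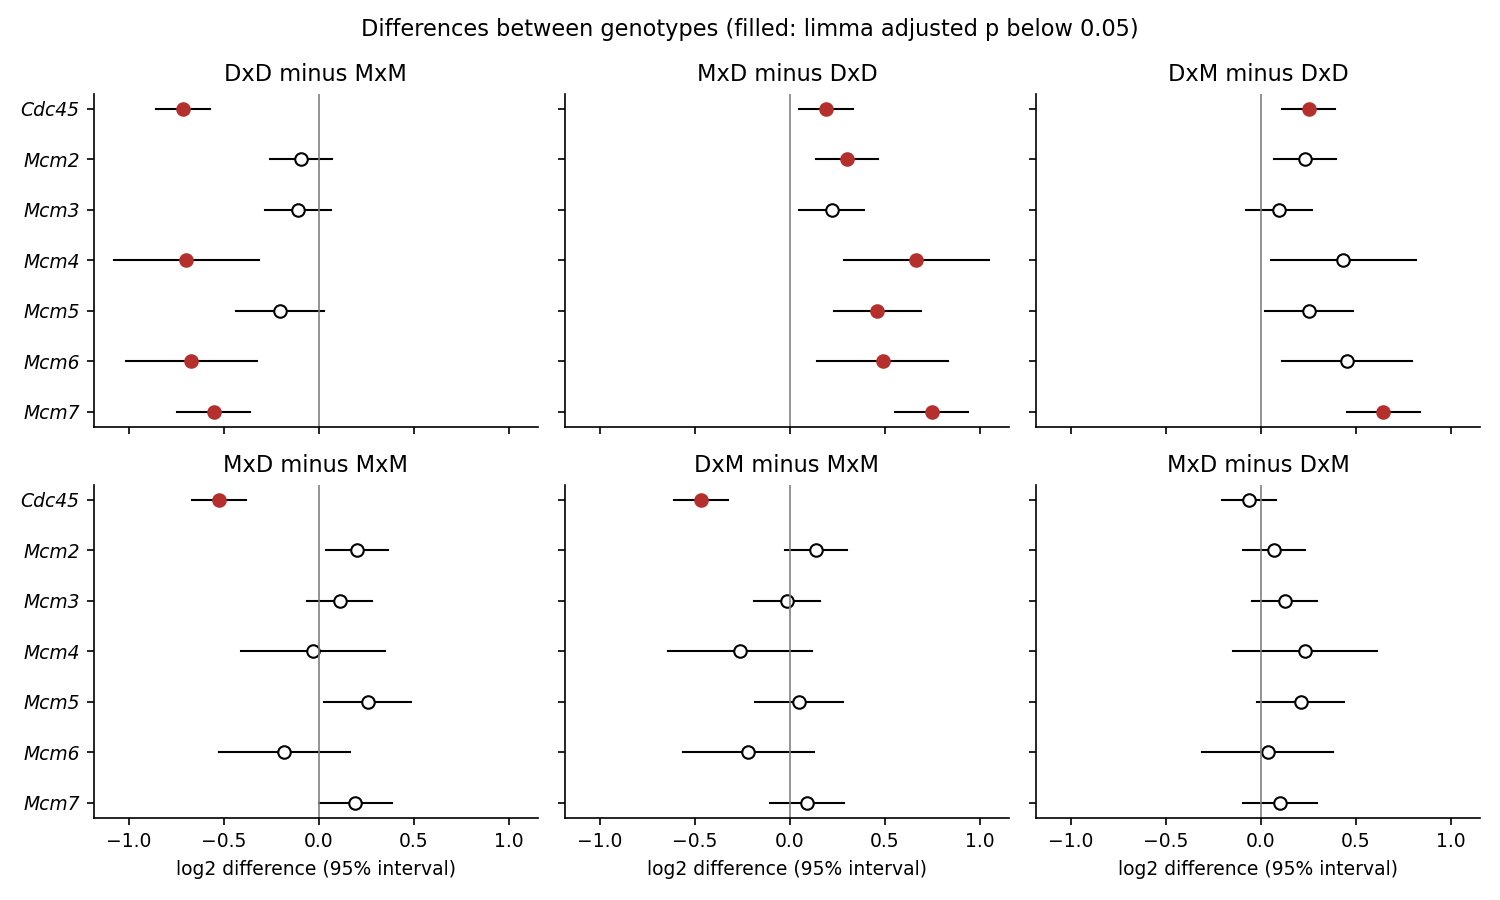
Log2 difference of each of the 7 genes in the 6 comparisons of genotypes, as points with limma 95% intervals, in which filled points passed Benjamini-Hochberg adjustment over 7000 genes. Differences from *DxD* lie on 1 side of 0 in every gene, Cdc45 is called in every comparison but the one between the hybrids, and nothing is called between the hybrids.

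Each hybrid was set against a mid-parent value, the average of the *DxD* and *MxM* means, to describe how the species difference appears in the hybrids. Cdc45 lay below the mid-parent value in both, by -0.11 in *DxM* (95% interval -0.23 to 0.01) and by -0.17 in *MxD* (limma adjusted p = 0.043). The *MxD* call was lost in 10 of the 12 fits that left out 1 male, and leaving out *MxD* replicate 1 or 3 gave limma adjusted p-values of 0.12 and 0.16. Mcm7 lay above it in both, by 0.37 in *DxM* (limma adjusted p = 0.019) and by 0.47 in *MxD* (limma adjusted p = 0.0013). Mcm5 and Mcm2 were above it in *MxD*, by 0.36 and 0.25 (limma adjusted p = 0.013 and 0.015), and were not called in *DxM*, where they were 0.15 and 0.18 above it. All 3 *MxD* males exceeded both species means in Mcm2, Mcm3, Mcm5 and Mcm7, 1 did so in Mcm4, and none did in Mcm6 or Cdc45. Of the *DxM* males, all 3 did so in Mcm2 and Mcm7, 2 in Mcm3 and Mcm5, and none in Cdc45, Mcm4 or Mcm6. The share of all genes with such counts was not computed. Counted by limma, 4 of the 7 genes differed from the mid-parent value in *MxD*, 3 above it (13.1% of all genes) and 1 below it (15.1%), against 28.2% of all genes in either direction. In *DxM* it was 1 gene, above the value (1.57%), against 4.64% in either direction. At an unadjusted p under 0.05 the counts were 5 in *MxD* (40.0% of all genes) and 2 in *DxM* (18.5%). The adjusted count in *MxD* was 1 without *MxD* replicate 3 and 2 without *MxD* replicate 1, and that in *DxM* was 0 without any 1 of the *DxM* males, or without *DxD* replicate 2 or 3.

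To set Cdc45 against the MCM genes within a male, each gene was centred on its mean over 12 males, and the mean of the 6 MCM genes was subtracted from Cdc45 in each male. This relative level was 0.36, 0.43 and 0.24 in the *MxM* males, 0.05, -0.03 and 0.03 in the *DxD* males, -0.07, -0.09 and -0.09 in the *DxM* males, and -0.25, -0.15 and -0.42 in the *MxD* males. The genotypes did not overlap, with *MxM* highest and *MxD* lowest. The values are a description, since they were computed after the values of the separate genes were seen.

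Among the 7 genes, the profile over the 12 males was compared by the root mean square difference between centred values, for which 0 means identical profiles. Mcm2 and Mcm3 were nearest to each other at 0.0922. Of all other genes, 0.758% were nearer to Mcm2 than Mcm3 was, and 1.97% were nearer to Mcm3 than Mcm2 was. Mcm4 and Mcm6 formed the other close pair at 0.132, where 0.143% of other genes were nearer to Mcm4 and 0.572% were nearer to Mcm6. The nearest member was farther for the others, at 0.152 for Mcm5 (Mcm3), 0.203 for Mcm7 (Mcm2) and 0.215 for Cdc45 (Mcm6), with 10.7%, 2.33% and 13.7% of other genes nearer. Outside the list, the genes whose profile was most like the mean of the 7 were ENSMUSG00000028759_at, at 0.0527, and ENSMUSG00000018377_at, at 0.0539, where the median over all other genes was 0.248. The former is listed as mitotic in the study's gene table and measured 7.11, 7.51, 7.38 and 7.54 on average in *DxD*, *MxM*, *DxM* and *MxD*. Almost as near were ENSMUSG00000028576_at (0.0551), listed as meiotic, ENSMUSG00000043872_at (0.0556), listed as mitotic, and ENSMUSG00000079555_at (0.0568). For ENSMUSG00000018377_at and ENSMUSG00000079555_at the rows used give no class. The 7 genes themselves lay from 0.120 (Mcm5) to 0.201 (Cdc45) from their mean.

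The pairs also differed in how they varied with the replicate number. In Mcm4 and Mcm6 replicate 1 was the lowest male in all 4 genotypes, by a mean of -0.32 and -0.34 relative to the other replicates. In Mcm7 replicate 1 was the highest male in all 4 genotypes, by 0.16, and in Mcm2 and Mcm3 it was the highest in 3 of the 4. Cdc45 had no such pattern, with a mean of -0.05. Over all genes, replicate 1 was lowest in all 4 genotypes in 20.4% and highest in all 4 in 14.9%. The labels do not say what the numbers mark. Spread within genotypes was large for Mcm4, whose SD of 0.31 in *MxD* exceeded that of 96.0% of genes, and small for Cdc45, whose SD of 0.02 in *DxD* exceeded that of 3.67%.

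The cell-type classes of the study's gene table were set beside the replication genes. The classes come from earlier array data on purified testis cells and mark where a gene is most induced, as mitotic (spermatogonia), meiotic (spermatocytes), postmeiotic (round spermatids) or somatic (Sertoli cells). Mcm3 and Mcm6 are in the rows of the table used here, both on chromosome 1 and both mitotic. Those rows are a part of the table, from chromosomes 1 to 5. The other members are not among them, and the class medians do not cover the whole genome. In *MxD* relative to *DxD*, the median log2 difference was 0.26 over 365 other mitotic genes, of which 143 rose and 11 fell by limma, -0.10 over 324 meiotic genes and -0.22 over 269 postmeiotic genes. Over 142 somatic genes it was 0.17, with 40 that rose and 12 that fell. In *MxD* relative to *DxM*, the median was 0.16 for mitotic genes, of which 28 rose and 4 fell, and -0.20 for postmeiotic genes, of which 1 rose and 38 fell. It was 0.11 for somatic genes, of which 7 rose and 2 fell, and -0.04 for meiotic genes, of which 3 rose and 8 fell, beside 0.10 for the 7 replication genes.

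The classes were also compared between the species. In *DxD* relative to *MxM* the median was -0.08 for mitotic genes, of which 38 were higher and 71 lower by limma, 0.03 for meiotic, -0.02 for postmeiotic and -0.06 for somatic genes, beside -0.55 for the replication genes. Averaged over genes and expressed as a deviation from the mean of 12 males, mitotic genes were at -0.10 ± 0.03 (SD over 3 males) in the *DxD* males and -0.05 ± 0.06 in the *MxM* males, and at -0.0015 ± 0.02 in *DxM* and 0.16 ± 0.06 in *MxD* males. The replication genes were at -0.30 ± 0.02, 0.13 ± 0.09, 0.03 ± 0.04 and 0.14 ± 0.07 in the same order. The *MxD* males were above all fertile males in the mitotic class, whereas in the replication genes they overlapped with the *MxM* males, of which replicate 3 had the highest value of all 12.

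**Figure D3:**
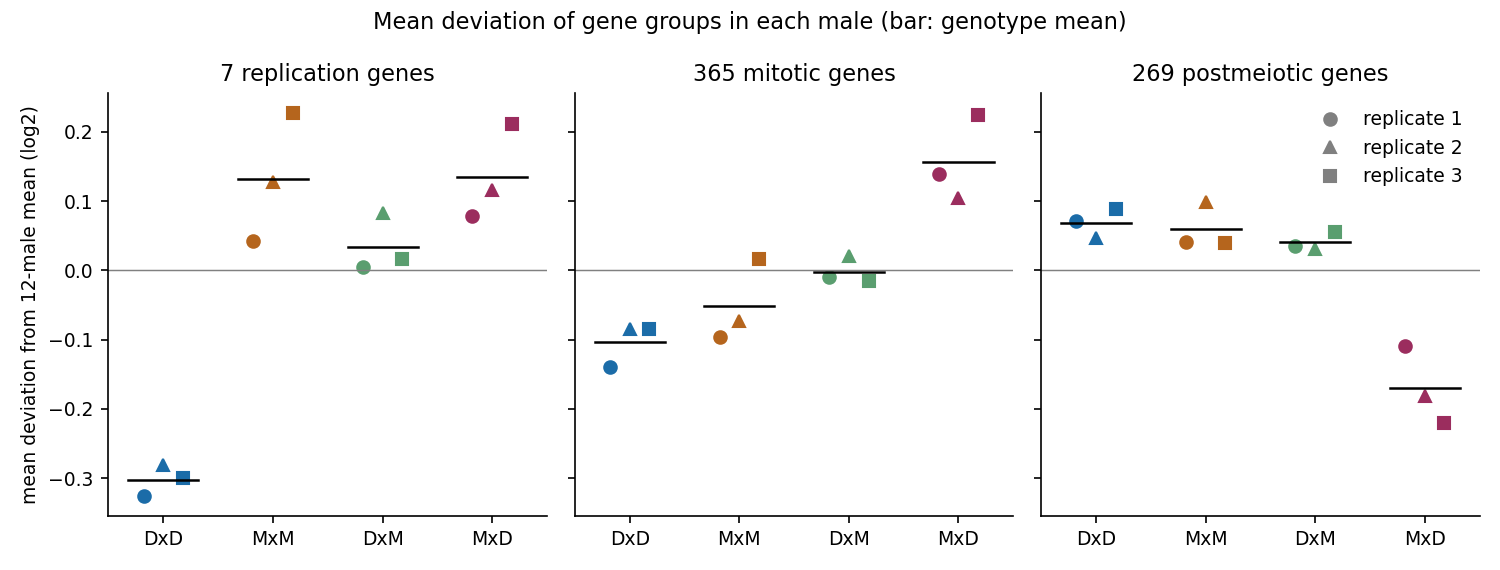
Mean deviation of each male from the mean of 12 males on the log2 scale, for the 7 replication genes, 365 mitotic genes and 269 postmeiotic genes, with bars at the genotype means. Replication genes are lowest in *DxD*, near -0.30, and overlap between *MxM* and *MxD*, whereas mitotic genes are highest in *MxD*, at 0.16, and postmeiotic genes lowest there, at -0.17.

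To express the differences relative to the mitotic class, each array was also centred on the mean deviation of its mitotic genes, a scaling added after the values were seen. Besides the 365 genes of the class, the set held mitotic genes that the paper lists as under-expressed in sterile males, among them Dnmt3a and Brwd1. Their effect on the scaling was not tested. Centring shifts every difference in a comparison by the same amount, -0.25 in *MxD* relative to *DxD*. Relative to *DxD*, the *MxD* difference was then 0.50 for Mcm7 (limma adjusted p = 0.0033), 0.41 for Mcm4 (limma adjusted p = 0.038), 0.21 for Mcm5 (limma adjusted p = 0.076), 0.24 for Mcm6 (limma adjusted p = 0.17) and 0.05 for Mcm2 (limma adjusted p = 0.63). With this shift Cdc45 and Mcm3 were at -0.06 and -0.03, and the count of replication genes that rose was 2 in place of 6, while the share of all genes called in either direction was 49.6% in place of 31.0%. Between the species the same scaling left all 4 calls, where 30.8% of all genes were called, with differences of *DxD* from *MxM* of -0.67 for Cdc45, -0.65 for Mcm4, -0.62 for Mcm6 and -0.50 for Mcm7. Cdc45 was -0.73 in *MxD* relative to *MxM* under this scaling (limma adjusted p = 4.1e-05), and Mcm6 was then called as lower too (-0.38, limma adjusted p = 0.040), where 45.1% of all genes were called. Between the hybrids none of the 7 genes was called, where 17.5% of all genes were, and the nearest to the threshold was Cdc45, lower in *MxD* by a difference of -0.21 (limma adjusted p = 0.073). Whether the share of mitotic cells accounts for the differences was not tested.

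**Figure D4:**
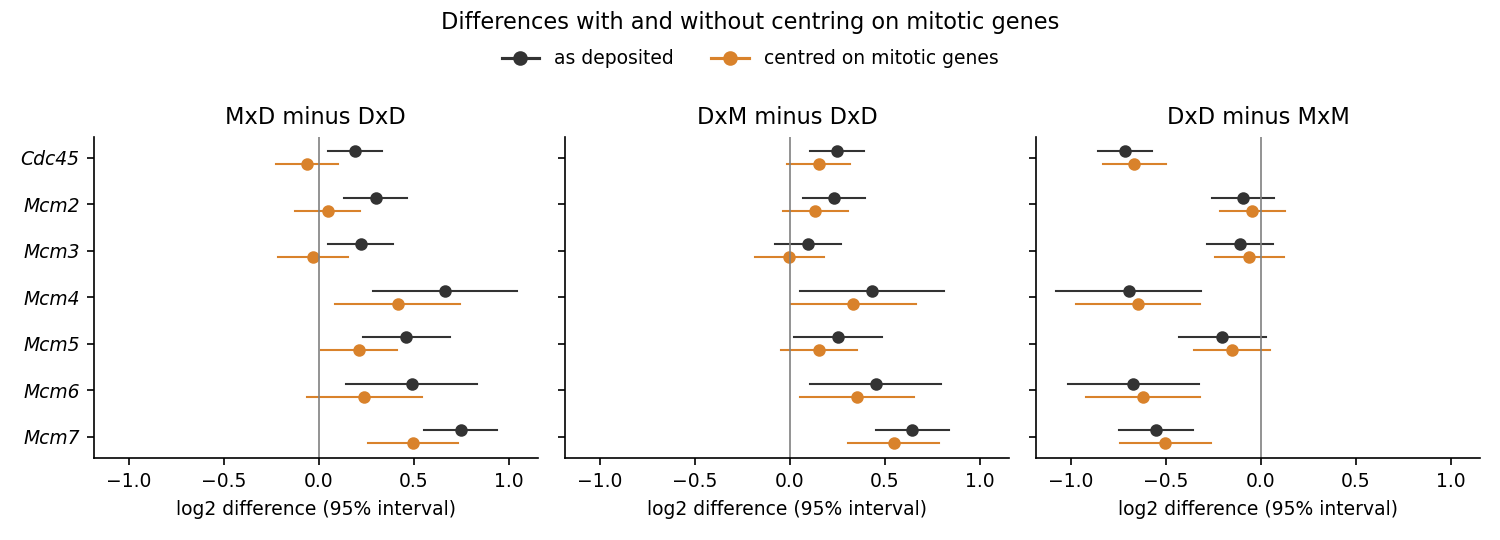
Log2 differences of the 7 genes with limma 95% intervals in 3 comparisons, from values as deposited (dark) and after centring each array on its mitotic genes (orange). Centring lowers every difference of *MxD* from *DxD* by the same amount (-0.25), so that Cdc45, Mcm2 and Mcm3 lie near 0 there, and leaves Cdc45, Mcm4, Mcm6 and Mcm7 below 0 in *DxD* minus *MxM*.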

How the data were processed

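Total RNA of whole testis was hybridised to Affymetrix mouse genome arrays. Using BRAINARRAY definitions (version 11) that group probes by Ensembl gene, the authors computed gene values with PLIER. They retained genes with detection in each of 12 males and last applied quantile normalization. The deposited log2 values were used unchanged. Detection in every male limits the genes to those with signal in all genotypes. Probe sequences follow laboratory mice, whose genome is closer to *M. domesticus* than to *M. musculus*, and the effect of probe mismatches on the values was not tested. The number of arrays limits the precision.

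Limma 3.58.1 in R 4.3.3 fitted all 4 genotypes with a shared spread (two-sided, Benjamini-Hochberg over 7000 genes, 5%). A simulation of the comparison of *DxD* with *MxM* on 7000 genes recovered 92% of log2 changes of 1 and 62% of 0.5. It used 1 SD per gene for all genotypes, independent males and 100 changed genes of each size. In the data the mean variance was 0.0879 in *MxM* and 0.0147 in *DxD*, and same-numbered males were correlated. The recovery therefore does not measure the power of the real comparison. The 7 members and the gene lists were chosen with earlier results of these data known. Mid-parent comparisons, the relative level of Cdc45 and centring on mitotic genes were added after the values were seen. Alternatives were the methods' t-test, only the genotypes compared, a replicate block, a trend and robust prior, 1 variance per genotype, no dimmest 25% of genes, arrays centred on 2005 autosomal genes, other thresholds and each male left out. Most of these autosomal genes lie on chromosomes 1 to 5.

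Values to be named were those of the 7 members, up to 5 genes of each of 5 lists of other replication genes, and the 5 genes most like the members. None of the listed symbols is paired with an identifier in the tables used here, so the lists were not analysed. For the same reason the 5 genes most like the members are named by identifier only. Markers of testis cell types could not be checked by symbol either, apart from Cyp17a1, and the classes of the study's gene table (1997 rows used, from chromosomes 1 to 5) were taken in their place. Same-numbered males deviated together from their genotype means, with correlations across genes from 0.151 to 0.756 in the comparisons of *MxD* with each fertile genotype and of *DxM* with *DxD*. The numbers therefore count as pairing these males. For *DxD* with *MxM* the lowest was 0.0744 and for *DxM* with *MxM* -0.0511, and there the numbers were not counted as pairs. No cut-off was stated for this split, and the replicate 1 males of these comparisons correlated at 0.568 and 0.597. With the replicate block their counts were again 4 and 1, where 44.4% and 27.4% of all genes were called. The pairing comes from these correlations and not from the labels. Figures were drawn with matplotlib 3.10.9.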

Additional observations from a re-analysis of the deposited data

How the results depend on the processing

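Of the 7 genes, the number called between *DxD* and *MxM* was 4 (31.9% of all genes called). It was 1 by the unequal-variance and 3 by the equal-variance form of the methods' t-test (6.69% and 19.7%). Between *MxD* and *DxD* it was 6 (31.0%), and 1 or 3 by the unequal-variance or equal-variance t-test (9.34% or 22.7%), 2 with adjustment at 1% (17.5%) and 2 with arrays centred on mitotic genes (49.6%). Between *MxD* and *MxM* it was 1 (30.3%), and 0 by the unequal-variance t-test (0.0429%), 4 with the replicate block (43.9%), 3 with arrays centred on autosomal genes (31.8%), 3 at an unadjusted p under 0.05 (41.5%) and 2 with arrays centred on mitotic genes (45.1%). Between *DxM* and *DxD* it was 2 (12.1%), and 0 by the unequal-variance t-test (2.43%), 4 with only the genotypes compared (17.8%), 5 with the replicate block (22.6%), 6 with 1 variance per genotype (22.0%), 6 at an unadjusted p under 0.05 (25.5%), 1 at 1% (5.76%) and 1 with arrays centred on mitotic genes (16.2%). Between *DxM* and *MxM* it was 1 (16.9%), and 0 by the unequal-variance t-test (0.0571%). Against the mid-parent value, *DxM* had 1 (4.64%), and 2 with the block (11.3%), 2 at an unadjusted p under 0.05 (18.5%), 0 at 1% (1.93%) and 0 with mitotic centring (8.76%), and *MxD* had 4 (28.2%), 1 at 1% (14.4%) and 2 with mitotic centring (50.3%). The cause of these changes was not tested. With each male left out in turn the count was 4 to 5 for *DxD* with *MxM*, 0 for *MxD* with *DxM*, 3 to 7 for *MxD* with *DxD*, 1 to 2 for *MxD* with *MxM*, 1 to 2 for *DxM* with *DxD*, 1 for *DxM* with *MxM*, 0 to 1 for *DxM* and 1 to 4 for *MxD* with the mid-parent value. Without the dimmest 25% of genes, Mcm2, Mcm3 and Mcm4 were not tested. The replicate block changed the call of Mcm3 in *MxD* relative to *DxD* (limma adjusted p = 0.021) and, against the mid-parent value, of Mcm2 in *DxM* (0.047) and of Mcm3 and Mcm4 in *MxD* (0.040 and 0.025), beside those given above. The mid-parent value could not be set in the methods' t-test.

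Directions that reversed belonged to differences not called at 5%, apart from Cdc45 in *MxD* relative to *DxD* with mitotic centring (-0.062). That setting reversed, in *MxD* relative to *DxM*, Mcm2 (-0.085), Mcm3 (-0.027), Mcm6 (-0.115) and Mcm7 (-0.050), and Mcm3 relative to *DxD* in *MxD* (-0.031) and *DxM* (-0.0038). Relative to *MxM* it reversed Mcm3 (-0.092) and Mcm7 (-0.0086) in *MxD* and Mcm5 in *DxM* (-0.00057), and relative to the mid-parent value Mcm3 in *DxM* (-0.034) and Mcm3 and Mcm6 in *MxD* (-0.062 and -0.072). Arrays centred on autosomal genes reversed Mcm3 in *DxM* relative to *MxM* (0.0085). Leaving out 1 male at a time reversed 6 differences. Mcm6 ranged from -0.047 to 0.144 between the hybrids, and Mcm4 from -0.210 to 0.081 in *MxD* relative to *MxM*. In *DxM* relative to *MxM*, Mcm3 ranged from -0.072 to 0.045 and Mcm5 from -0.058 to 0.163. In *DxM* relative to the mid-parent value, Mcm3 ranged from -0.0025 to 0.093 and Mcm4 from -0.022 to 0.227.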
